A study of Mus musculus with 12 samples.

Results

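The comparison described here is PRMT1 knockdown in 3T3-L1 cells at day 1 of adipogenic induction, 3 siPRMT1 against 3 siCtrl mRNA libraries, which are 6 of the 12 libraries of the series. 3T3-L1 is an established mouse preadipocyte line derived from embryonic fibroblasts, a single clonal line grown in culture. All 6 libraries came from cells that had been transfected with siRNA, grown past confluence and exposed for 24 h to DMI, which combines dexamethasone with 3-isobutyl-1-methylxanthine and insulin. The siCtrl cells received a non-targeting siRNA and the siPRMT1 cells an siRNA against Prmt1, so transfection and DMI were common to both groups. The siRNA sequence differed between the groups, so its own effects and those of a lower Prmt1 level cannot be told apart here. The 3 siCtrl and 3 siPRMT1 libraries of day 3 complete the series and are used only where the days are set side by side. Of the 39423 genes listed in the count table, 13689 passed edgeR's filter on low counts at day 1 and were tested.

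PRMT1 is the main type I protein arginine methyltransferase of mammalian cells, which places asymmetric dimethylarginine on histone H4 and on many RNA-binding and signalling proteins. Confluent, growth-arrested 3T3-L1 cells answer DMI by re-entering the cell cycle, a phase called mitotic clonal expansion, to which day 1 belongs. C/EBPβ and C/EBPδ are induced first, PPARγ and C/EBPα follow, and lipid storage genes come last, so day 1 lies before most fat cell genes reach their full level.

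The 6 libraries held 21265036 to 42357137 counts, and a count of 0 allows up to 3 counts, or 0.0708 to 0.141 CPM (counts scaled to a common library total), counting error only. The labels do not say whether the replicates were separate cultures, and the study's statement that its data come from independent experiments does not name these libraries, so p-values measure the spread between these libraries, which may be technical. The library siCtrl replicate 3 stood apart. Its root-mean-square log2 distance was 0.484 to siCtrl replicate 1 and 0.438 to replicate 2, where the first and second siCtrl replicates were 0.285 apart and the siPRMT1 libraries 0.235 to 0.267 apart. It lay more than 0.5 log2 units above both or below both of its group mates in 1293 genes, against 64 to 164 genes for each of the other 5 libraries. Where a list had at least 3 calls in a direction, that count, or the genes behind it, is therefore given below with each library left out. All 9 fibroblast and preadipocyte markers were detected, with a summed level of 8863 to 9503 CPM in siCtrl and 7860.2 to 8521 CPM in siPRMT1 libraries. The 7 adipocyte markers summed to 21.5 to 30.2 CPM in siCtrl and 13.7 to 19.3 CPM in siPRMT1 libraries, with Lep and Pck1 at 0 counts throughout. Leukocyte markers summed to 4.39 to 5.03 CPM in siCtrl and 4.88 to 5.51 CPM in siPRMT1 libraries, and the defining genes Ptprc, Adgre1 and Tyrobp had 0 counts in all 6. Endothelial, epithelial, muscle and neuron markers each summed to at most 3.51 CPM in any library. Fibroblast and adipocyte sums thus lay lower and neuron sums higher (1.43 to 1.58 CPM in siCtrl and 2.05 to 2.54 CPM in siPRMT1) in all siPRMT1 libraries, and their part in the results was not tested. In bulk libraries, fewer cells of a kind and less RNA per cell cannot be told apart.

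The knockdown rests on 25-base duplexes, and 3 of them against Prmt1 are listed in the study's supplement, without a statement of which one served for sequencing. Their guide strands are shown because they define the perturbation, 5′ to 3′, with the seed (bases 2 to 8) in capitals.
siPRMT1-1: aAGAGAUGccgauugugaaacaugg
siPRMT1-2: uUGGCAUUgggccucauuccaaugg
siPRMT1-3: uUAUAUUGucgguccucaauggcug
Each guide was the exact complement of a stretch of Prmt1 coding sequence on the minus strand of chromosome 7 (GRCm38, GENCODE vM21). The target of siPRMT1-1 lies in exon 3 at chr7:44981826-44981850, that of siPRMT1-3 in exon 6 at chr7:44978900-44978924, and that of siPRMT1-2 in exon 9 at chr7:44977511-44977535. They matched 9, 7 and 8 of the 14 annotated Prmt1 transcripts. The siPRMT1-1 target was also found whole in transcripts of 1 other gene, Gm5252, and the targets of the other 2 siRNAs in none.

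Prmt1 itself (chr7:44976755-44986420, minus strand) was present at 142, 143 and 154 CPM in siCtrl and 72.8, 63.96 and 67.7 CPM in siPRMT1 libraries. The siPRMT1 libraries thus all lay below the 3 siCtrl libraries, and the level was 2.15-fold lower (log2 fold change -1.11 ± 0.076, edgeR adjusted p = 0.00098, n = 3 against 3). The transcript level fell by 53.5%. The values in siCtrl replicate 3 and its group mates were close for this gene, and the log2 fold change was -1.07 without siCtrl replicate 3. Among the other members of the family, none was called in either direction. Per transcript length, the mean level in siCtrl cells was 85.8 ± 4.71 FPKM (SD, n = 3) for Prmt1, 41.8 ± 5.53 FPKM for Prmt5, the main type II enzyme, and 32.03 ± 4.12 FPKM for Carm1, also called PRMT4. Prmt7 followed at 25.5 ± 2.45, Prmt3 at 16.6 ± 0.923, Prmt2 at 12.7 ± 1.86 and Prmt6 at 6.96 ± 0.501 FPKM. Under knockdown the log2 fold changes of these 6 genes lay between 0.055 for Prmt2 and 0.26 for Carm1, and no adjusted p was below 0.13 (edgeR). Of the 22 methyltransferases and partner proteins tested, 3 were called, all lower, against 1.61% of all genes. Beside Prmt1 these were Ddah1, which breaks down free asymmetric dimethylarginine, and Btg1, an antiproliferative protein that binds PRMT1. Ddah1 stood at 46.1, 44.9 and 52.95 CPM in siCtrl and 25.2, 20.5 and 24.1 CPM in siPRMT1 libraries (log2 fold change -1.05 ± 0.11, edgeR adjusted p = 0.0030). Btg1 stood at 567, 527 and 512 CPM in siCtrl and 359, 389 and 374 CPM in siPRMT1 libraries (log2 fold change -0.52 ± 0.063, edgeR adjusted p = 0.0043). With any 1 library left out, Ddah1 and Prmt1 kept the call. It was lost for Btg1 (-0.57 to -0.48) without siCtrl replicate 1.

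Across all genes, siPRMT1 against siCtrl gave 267 calls of a higher and 220 of a lower level, which is 1.95% and 1.61% of the genes tested. A call means an adjusted p under 0.05 in edgeR's quasi-likelihood test together with a log2 fold change beyond 0.5 in either direction. The median log2 fold change of all 13689 genes was 0.0096. The siPRMT1 libraries lay entirely above the siCtrl libraries in 15.5% and entirely below them in 16.0% of all genes tested, and the unadjusted p was under 0.05 in 24.6%. These shares are the background for the counts of every list below. The median size of a called rise was 1.76-fold and of a called fall 1.59-fold, with 88 rises and 33 falls over 2-fold. The counts depend on single libraries. The number higher was 165, 93 and 504 without siCtrl replicates 1, 2 and 3 and 92, 85 and 61 without siPRMT1 replicates 1, 2 and 3. The number lower was 177, 92 and 369 without the siCtrl replicates in that order and 87, 92 and 62 without the siPRMT1 replicates. Of the 487 called genes, 113 kept the call in every one of these 6 fits, 58 of them higher and 55 lower. Without siCtrl replicate 3, 255 of the 267 higher and 189 of the 220 lower genes were called again.

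**Figure D1:**
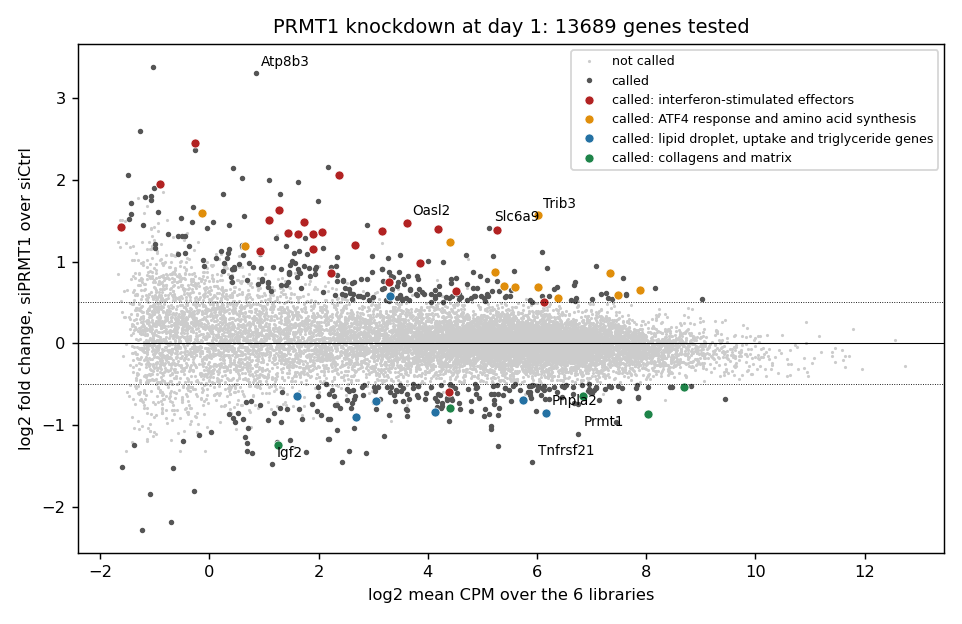
Each point is 1 of the 13689 genes tested at day 1, by its log2 mean CPM over the 6 libraries (horizontal axis) and its log2 fold change of siPRMT1 over siCtrl (vertical axis), with dotted lines at the threshold of 0.5. Dark and coloured points are the called genes, among which the called interferon-stimulated effectors lie above 0 with 1 exception and the called ATF4 response genes all lie above 0, while Prmt1 lies at -1.11.

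The 10 called genes with the largest rises and the 10 with the largest falls, among genes of at least 1 CPM, came from several functions. Atp8b3 (chr10:80519584-80539154), a phospholipid-transporting P-type ATPase, went from 0.145, 0.430 and 0.521 CPM in siCtrl to 2.88, 3.34 and 3.46 CPM in siPRMT1 libraries (log2 fold change 3.31 ± 0.34, edgeR adjusted p = 0.0030). It was near the detection limit in the controls, where the first siCtrl replicate held 6 counts. Amh (chr10:80805028-80807679), anti-Müllerian hormone of the TGF-beta family, stood at 1.31, 1.72 and 2.04 CPM in siCtrl and 6.48, 7.34 and 8.17 CPM in siPRMT1 libraries (log2 fold change 2.16 ± 0.19, edgeR adjusted p = 0.0022). Adm2 (chr15:89322720-89324731), a peptide hormone of the calcitonin family and an ATF4 target, rose (0.430 to 0.556 CPM in siCtrl and 1.36 to 2.90 CPM in siPRMT1 libraries, log2 fold change 2.14). The interferon-induced Rtp4, Apol9a, Apol9b and the chemokine Cxcl10 rose by 2.06, 1.98, 1.82 and 1.74 on the log2 scale. Apol9a and Apol9b are near-identical neighbours on chromosome 15, so how reads were divided between them is uncertain. Col9a3, a cartilage collagen chain, Ryr1, the calcium release channel of muscle, and Epha1, an ephrin receptor, completed the 10 rises with 2.02, 2.003 and 1.83. Their levels in siCtrl libraries were 0.459 to 0.711, 0.629 to 1.10 and 0.484 to 0.573 CPM. The siCtrl means of Atp8b3, Adm2, Col9a3, Ryr1 and Epha1 were below 1 CPM, so these genes reached the required mean through the siPRMT1 libraries.

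Among the falls, Tnfrsf21 (chr17:43016555-43089188), a death domain receptor, was the most abundant, at 84.6, 81.4 and 98.8 CPM in siCtrl and 35.3, 29.6 and 31.6 CPM in siPRMT1 libraries (log2 fold change -1.46 ± 0.10, edgeR adjusted p = 0.00098). Igf2 (chr7:142650768-142666816), a paternally expressed growth factor, stood at 3.97, 2.82 and 2.89 CPM in siCtrl and 1.14, 1.03 and 1.37 CPM in siPRMT1 libraries (log2 fold change -1.47 ± 0.21, edgeR adjusted p = 0.0074). H19 (chr7:142575530-142578146), the maternally expressed non-coding RNA beside Igf2 on chromosome 7, stood at 9.21, 9.69 and 12.4 CPM in siCtrl and 4.11, 4.08 and 4.10 CPM in siPRMT1 libraries (log2 fold change -1.34 ± 0.14, edgeR adjusted p = 0.0030). The siPRMT1 libraries of both imprinted neighbours lay entirely below the siCtrl libraries. Fam107a, a glucocorticoid-induced actin regulator, fell (49.8 to 61.6 CPM in siCtrl and 19.02 to 26.1 CPM in siPRMT1 libraries, log2 fold change -1.26). Cdh26, a cadherin, and Negr1, a cell adhesion molecule of neurons, fell by 1.45 and 1.34 on the log2 scale. Aldh1a7, an aldehyde dehydrogenase, and Clmn, an actin-binding membrane protein, fell by 1.33 and 1.31. Kera, a keratan sulfate proteoglycan of the matrix, and Mmp3, the matrix protease stromelysin, fell by 1.32 and 1.25. Of these 20 genes, Atp8b3, Amh, Rtp4, Apol9a, Apol9b, Cxcl10, Col9a3, Ryr1, Epha1, Tnfrsf21, H19, Fam107a, Cdh26, Aldh1a7 and Kera kept the call whichever library was left out. It was lost, with log2 fold changes over the 6 fits in brackets, for Igf2 (-1.60 to -1.27) without siPRMT1 replicate 2, for Mmp3 (-1.38 to -1.08) without siPRMT1 replicates 1 and 3, and for Adm2 (1.90 to 2.37) without siCtrl replicate 2 or siPRMT1 replicates 2 and 3. It was also lost for Clmn (-1.42 to -1.14) without siPRMT1 replicates 1, 2 and 3, and for Negr1 (-1.48 to -1.17) without siCtrl replicate 2 or siPRMT1 replicates 1, 2 and 3.

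**Figure D2:**
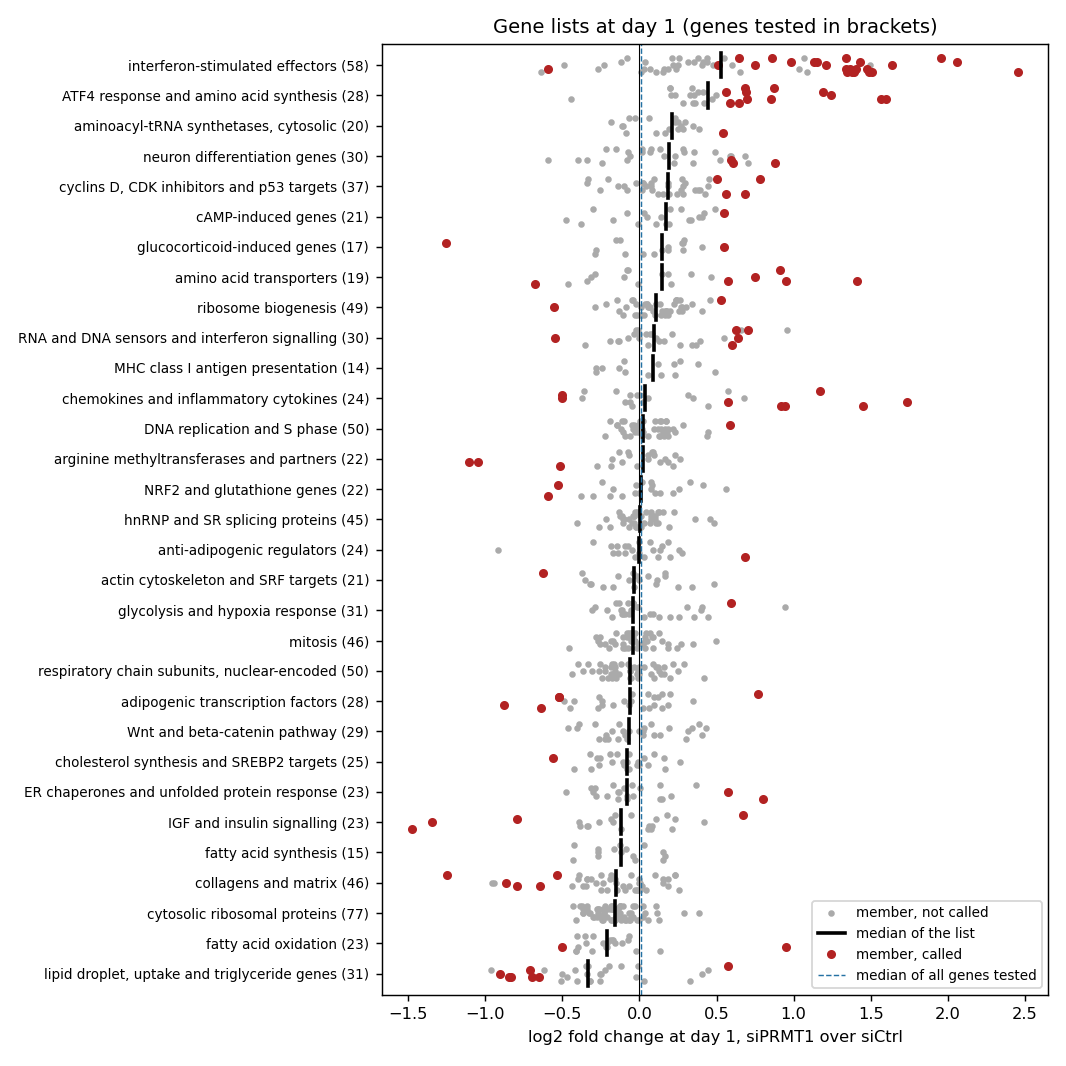
Log2 fold changes of siPRMT1 over siCtrl at day 1 (horizontal axis) for the tested members of each gene list (rows, ordered by median), with called members in red, a black bar at the list's median and a dashed line at the median of all genes. The medians run from -0.33 for the lipid droplet, uptake and triglyceride genes to 0.53 for the interferon-stimulated effectors.

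Genes induced by interferon formed the list with the most calls. Type I interferon is secreted on sensing of foreign nucleic acid and acts through factors that include STAT2 and IRF9 on the interferon-stimulated response element, a DNA motif, to induce antiviral effectors. Of 58 effectors tested, 23 were called higher and 1 lower, against 1.95% and 1.61% of all genes, and 51 had a positive log2 fold change. The list's median log2 fold change was 0.53, beside 0.0096 for all genes, and 0.53 without siCtrl replicate 3. The number called higher was 19, 14 and 27 without siCtrl replicates 1, 2 and 3, and 12, 10 and 9 without siPRMT1 replicates 1, 2 and 3. The summed leukocyte markers overlapped between the groups, as given above. Of the 3 leukocyte markers tested singly, 1 was called lower, and 1 lay higher in every siPRMT1 library than in any siCtrl library. The effector transcripts were mostly scarce, with large relative changes from low levels.

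Oasl2, an antiviral protein of the 2'-5'-oligoadenylate synthetase family, stood at 6.53, 6.11 and 6.78 CPM in siCtrl and 16.4, 16.8 and 20.9 CPM in siPRMT1 libraries (log2 fold change 1.48 ± 0.12, edgeR adjusted p = 0.0022). Its relative Oasl1 stood at 0.242, 0.239 and 0.284 CPM in siCtrl and 1.53, 1.10 and 1.61 CPM in siPRMT1 libraries, the largest log2 fold change of the list at 2.46 but from under 0.3 CPM. Bst2, or tetherin, which holds budding virus at the cell surface, was the most abundant of the strongly raised effectors at 21.2, 19.5 and 22.8 CPM in siCtrl and 46.3, 50.5 and 69.5 CPM in siPRMT1 libraries (log2 fold change 1.39 ± 0.15, edgeR adjusted p = 0.0035). Rtp4, a chaperone of receptors that is induced by interferon, stood at 2.35, 1.81 and 1.75 CPM in siCtrl and 7.42, 8.85 and 8.93 CPM in siPRMT1 libraries (log2 fold change 2.06 ± 0.16, edgeR adjusted p = 0.0015). Mx1, an antiviral dynamin-like GTPase, stood at 2.22, 2.05 and 1.99 CPM in siCtrl and 4.75, 5.43 and 5.83 CPM in siPRMT1 libraries (log2 fold change 1.34 ± 0.14, edgeR adjusted p = 0.0030). In each of these 5 genes the lowest siPRMT1 library lay at least 2.03-fold above the highest siCtrl library. Ifit1, which binds viral RNA ends, rose (7.44 to 11.8 CPM in siCtrl and 22.6 to 29.6 CPM in siPRMT1 libraries, log2 fold change 1.40), and so did its neighbour Ifit3 (1.71 to 2.91 CPM in siCtrl and 4.28 to 5.71 CPM in siPRMT1 libraries, log2 fold change 1.15). Usp18, the protease that removes ISG15 and dampens the interferon receptor, rose by 1.49 and Xaf1, a pro-apoptotic effector, by 1.36 on the log2 scale. Other called members were the guanylate-binding GTPases Gbp2, Gbp3, Gbp6 and Gbp7 (log2 fold changes 0.86, 1.51, 1.34 and 1.21), the synthetases Oas2 and Oas1b (1.95 and 1.13), the helicase Ddx60 (1.64) and the T cell specific GTPase Tgtp1 (1.43). Members of the Gbp, Oas1 and Tgtp families have near-identical copies, and their values are uncertain to that extent. Oas1a stood at 0.193, 0.0477 and 0.284 CPM in siCtrl and 0.466, 0.551 and 0.523 CPM in siPRMT1 libraries and passed only without siCtrl replicate 3 (edgeR adjusted p = 0.078 with all libraries, 0.015 without it). Isg15 was listed at 0 counts in all 6 libraries, its exons shared over 85.1% of their length with another listed gene, and Rsad2 was below the filter at no more than 0.603 CPM. The 1 member called lower was Ifi204, a DNA-binding protein of the p200 family (-0.59), and the number lower was 2 without siCtrl replicate 3 and 0 in the other 5 fits. Among the 9 genes from Oasl2 to Xaf1 given here, the call held for Oasl2, Oasl1, Bst2, Rtp4, Mx1, Ifit1 and Xaf1 in all 6 fits with a library left out. The call was lost for Usp18 (1.35 to 1.64) without siPRMT1 replicate 3, and for Ifit3 (1.01 to 1.32) without siPRMT1 replicates 1, 2 and 3.

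**Figure D3:**
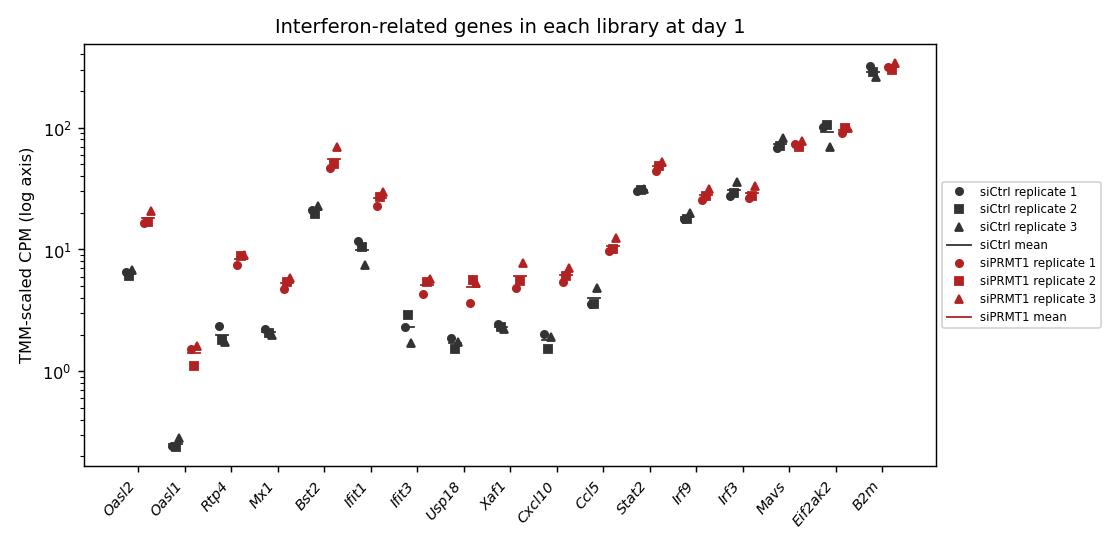
TMM-scaled CPM on a log axis (vertical) of 17 interferon-related genes (horizontal) in the 3 siCtrl (black) and 3 siPRMT1 (red) libraries at day 1, with a symbol per replicate and a line at each group's mean. From Oasl2 to Irf9 every siPRMT1 library lies above every siCtrl library, while Irf3, Mavs, Eif2ak2 and B2m overlap between the groups.

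Upstream of these effectors fewer genes were called. Among 30 nucleic acid sensors and interferon signalling genes tested, 4 were higher and 1 lower, against 1.95% and 1.61% of all genes. The median log2 fold change was 0.095. Stat2 stood at 30.3, 31.03 and 31.5 CPM in siCtrl and 44.2, 48.5 and 52.1 CPM in siPRMT1 libraries (log2 fold change 0.64 ± 0.083, edgeR adjusted p = 0.0057). Its partner Irf9 stood at 17.8, 17.7 and 19.96 CPM in siCtrl and 25.3, 27.5 and 31.2 CPM in siPRMT1 libraries (log2 fold change 0.60 ± 0.10, edgeR adjusted p = 0.016). Socs1, the feedback inhibitor of JAK kinases, and Ifih1, the RNA sensor MDA5, were called with 0.70 and 0.63 on the log2 scale. Of the other sensors, Ddx58, which encodes RIG-I, passed the adjusted p but not the fold threshold (log2 fold change 0.39 ± 0.081, edgeR adjusted p = 0.027). Dhx58 had a log2 fold change of 0.55 and Tlr3 of -0.36, neither past the threshold (adjusted p 0.078 and 0.32 in edgeR). Eif2ak2, the kinase PKR, stood at 101, 105 and 69.3 CPM in siCtrl and 91.2, 99.1 and 99.2 CPM in siPRMT1 libraries, with siCtrl replicate 3 lowest of the 6. The adaptor Mavs and the factor Irf3 had log2 fold changes of -0.00017 and -0.073, and Irf7 of 0.66 (edgeR adjusted p = 0.094). Without siCtrl replicate 3, Dhx58, Irf7 and Tlr3 passed the test, with 0.69, 0.76 and -0.53. Ifnb1, interferon beta itself, had 0 counts in 5 libraries and 1 count in siPRMT1 replicate 2, which is within the limit that a count of 0 allows. Ifngr1, the interferon gamma receptor, was the member called lower (-0.55). The number of sensors and signalling genes called higher was 2, 1 and 6 without siCtrl replicates 1, 2 and 3, and 2, 1 and 1 without siPRMT1 replicates 1, 2 and 3. For Stat2 the call held in every such fit. It was lost for Irf9 (0.51 to 0.66) without siCtrl replicate 2 or siPRMT1 replicates 2 and 3, and for Socs1 (0.59 to 0.83) and Ifih1 (0.50 to 0.76) without siCtrl replicates 1 and 2 or siPRMT1 replicates 1, 2 and 3.

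None of the 14 genes of class I antigen presentation tested was called by edgeR or DESeq2. At an unadjusted p under 0.05, 2 were higher and 2 lower, beside 24.6% of all genes in either direction. B2m, the shared light chain of class I molecules, stood at 320.1, 287 and 258 CPM in siCtrl and 315, 299 and 339 CPM in siPRMT1 libraries, and H2-K1 and H2-D1 had log2 fold changes of 0.23 and 0.27. The H2 genes have close copies and alternative scaffolds in this table, and Tap1, Psmb8 and Psmb9 were below the filter, so the class I list was measured in part. Without siCtrl replicate 3, H2-D1 was called higher (0.52). Of 24 chemokines and cytokines, 6 were called higher and 2 lower, against 1.95% and 1.61% of all genes, with a median of 0.038. The T cell chemokine Cxcl10 stood at 2.03, 1.53 and 1.90 CPM in siCtrl and 5.42, 6.02 and 7.0 CPM in siPRMT1 libraries (log2 fold change 1.74 ± 0.17, edgeR adjusted p = 0.0030). Ccl5, or RANTES, stood at 3.55, 3.58 and 4.79 CPM in siCtrl and 9.70, 10.1 and 12.5 CPM in siPRMT1 libraries (log2 fold change 1.45 ± 0.16, edgeR adjusted p = 0.0035). Il6 rose (2.04 to 3.14 CPM in siCtrl and 4.79 to 6.54 CPM in siPRMT1 libraries, log2 fold change 1.17) and so did Il11 (2.01 to 2.61 CPM in siCtrl and 4.11 to 4.52 CPM in siPRMT1 libraries, log2 fold change 0.95), both cytokines that signal through gp130. Ccl7, a monocyte chemokine, rose by 0.58 and Lif, a further gp130 cytokine, by 0.92 on the log2 scale. The monocyte chemokine Ccl2 had a larger log2 fold change than Ccl7, 0.68, but more spread, and was not called (edgeR adjusted p = 0.081). Cxcl1 passed the adjusted p below the fold threshold (log2 fold change 0.44 ± 0.093, edgeR adjusted p = 0.027). Il33 and the interleukin-1 receptor antagonist Il1rn were called lower (-0.50 and -0.51). The number of chemokines and cytokines called higher was 5, 3 and 6 without siCtrl replicates 1, 2 and 3, and 3, 2 and 2 without siPRMT1 replicates 1, 2 and 3, and 1 was called lower without siCtrl replicate 3 and 0 in the other 5 fits. For Cxcl10 and Ccl5 the call did not depend on any 1 library. Leaving out a library ended the call for Il6 (1.03 to 1.37) without siCtrl replicate 2 or siPRMT1 replicates 2 and 3, for Ccl7 (0.52 to 0.66) without siPRMT1 replicates 1, 2 and 3, and for Il11 (0.88 to 1.10) without siCtrl replicate 2 or siPRMT1 replicates 1, 2 and 3. Lif had no call without siCtrl replicate 1, siCtrl replicate 2 or any 1 siPRMT1 library.

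The interferon-stimulated response element can be looked for in the promoter windows, which run from 250 bases before to 50 bases after each RefSeq start (GRCm38.p6). The letters searched were GAAA, any 2 bases and GAAA again, on both strands. They occurred in 3.44% of all 32851 windows and in 3.51% of the 9823 tested genes with a window. Among genes called higher, 23 of 181 with a window held the motif, or 12.7%, and among genes called lower 6 of 155, or 3.87%. In the effector list it was present in 20 of 43 tested members and in 8 of 14 called ones. The windows of Bst2 and Cxcl10 are shown as examples of an effector and a chemokine, 5′ to 3′ on the strand of the gene, with motif matches in capitals. The pair of matches in Bst2 overlaps, from base -130, and the match in Cxcl10 begins at base -213 from the start.
Bst2 (minus strand, chr8:71537423-71537722): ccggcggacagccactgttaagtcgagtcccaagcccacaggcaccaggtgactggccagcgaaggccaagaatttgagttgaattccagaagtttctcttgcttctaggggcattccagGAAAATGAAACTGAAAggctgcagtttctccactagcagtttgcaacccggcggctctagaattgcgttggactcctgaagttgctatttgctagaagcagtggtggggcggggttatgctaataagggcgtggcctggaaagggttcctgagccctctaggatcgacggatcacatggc
Cxcl10 (minus strand, chr5:92348840-92349139): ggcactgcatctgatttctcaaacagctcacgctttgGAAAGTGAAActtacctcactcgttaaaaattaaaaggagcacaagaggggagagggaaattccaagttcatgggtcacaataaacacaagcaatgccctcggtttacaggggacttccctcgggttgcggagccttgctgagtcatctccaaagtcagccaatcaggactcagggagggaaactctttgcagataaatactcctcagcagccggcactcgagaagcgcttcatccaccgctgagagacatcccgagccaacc
A match is a description of the sequence, and binding was not measured.

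The other group with many calls was the amino acid response. When amino acids are short or the endoplasmic reticulum is stressed, phosphorylation of eIF2alpha favours translation of the factor ATF4, which induces enzymes of serine, glycine and asparagine synthesis, amino acid transporters and stress genes. Of 28 genes of this response tested, 12 were called higher and 0 lower by edgeR, against 1.95% and 1.61% of all genes. With DESeq2 the counts were 12 and 0. A positive log2 fold change was seen in 27 of the 28, 26 with an unadjusted p under 0.05, and 1 was negative at that level. Over all genes, 24.6% had such a p in either direction. The median log2 fold change was 0.45, and 0.48 without siCtrl replicate 3, which itself lay 0.13 above its group mates in the median of this list. The number called higher was 12, 9 and 13 without siCtrl replicates 1, 2 and 3, and 8, 9 and 8 without siPRMT1 replicates 1, 2 and 3.

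Trib3, a pseudokinase that feeds back on ATF4, stood at 30.5, 31.1 and 36.5 CPM in siCtrl and 90.3, 98.9 and 101 CPM in siPRMT1 libraries (log2 fold change 1.57 ± 0.093, edgeR adjusted p = 0.00098). Chac1, which degrades glutathione, stood at 12.5, 11.03 and 14.1 CPM in siCtrl and 27.9, 30.8 and 30.5 CPM in siPRMT1 libraries (log2 fold change 1.24 ± 0.11, edgeR adjusted p = 0.0022). Ddit3, the stress factor CHOP, stood at 35.98, 37.6 and 37.5 CPM in siCtrl and 57.9, 59.7 and 61.03 CPM in siPRMT1 libraries (log2 fold change 0.69 ± 0.069, edgeR adjusted p = 0.0030). In all 3 genes the libraries of a group lay close together and the groups were well apart. Gpt2, a mitochondrial alanine aminotransferase, rose (47.1 to 51.8 CPM in siCtrl and 78.4 to 81.7 CPM in siPRMT1 libraries, log2 fold change 0.69). Aldh1l2, a mitochondrial enzyme of folate metabolism, rose (102 to 126 CPM in siCtrl and 202 to 217 CPM in siPRMT1 libraries, log2 fold change 0.86). Shmt2, the mitochondrial serine hydroxymethyltransferase, rose (167 to 213 CPM in siCtrl and 282 to 298 CPM in siPRMT1 libraries, log2 fold change 0.65). Psph, the last enzyme of serine synthesis, rose by 0.70, Aldh18a1, of proline synthesis, by 0.59, and Ppp1r15a, the eIF2alpha phosphatase subunit GADD34, by 0.87 on the log2 scale. Atf3, a stress-induced factor, Gdf15, a stress hormone, and Sesn2, an inhibitor of mTORC1, rose by 1.19, 1.60 and 0.56. Atf4 itself, whose control is largely translational, stood at 334, 332 and 378 CPM in siCtrl and 392, 405 and 399 CPM in siPRMT1 libraries and was not called (log2 fold change 0.20 ± 0.067, edgeR adjusted p = 0.12). The abundant enzymes Phgdh, Psat1, Mthfd2 and Asns passed the adjusted p with log2 fold changes below the threshold, 0.38, 0.34, 0.47 and 0.33, and without siCtrl replicate 3 Mthfd2 was called (0.52). Fgf21 was below the filter. Leaving out any 1 library did not end the call of Trib3, Chac1, Ddit3, Gpt2 and Aldh1l2. A call was lost for Shmt2 (0.58 to 0.76) without siPRMT1 replicates 1 and 3, for Atf3 (1.05 to 1.36) and Gdf15 (1.29 to 1.84) without siCtrl replicate 2 or siPRMT1 replicates 1, 2 and 3, and for Sesn2 (0.48 to 0.67) without siCtrl replicates 1 and 2 or siPRMT1 replicates 1, 2 and 3.

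Of 19 amino acid transporters, 5 were called higher and 1 lower, against 1.95% and 1.61% of all genes, with a median of 0.14. Slc6a9, the glycine transporter GLYT1, stood at 17.7, 19.3 and 19.9 CPM in siCtrl and 48.7, 47.9 and 54.5 CPM in siPRMT1 libraries (log2 fold change 1.41 ± 0.089, edgeR adjusted p = 0.00098). Slc7a5, the light chain of the large neutral amino acid exchanger LAT1, stood at 92.8, 84.8 and 100.4 CPM in siCtrl and 175, 180.4 and 182 CPM in siPRMT1 libraries (log2 fold change 0.95 ± 0.077, edgeR adjusted p = 0.0020). Slc7a1, a carrier of arginine and lysine, rose (73.1 to 80.97 CPM in siCtrl and 126 to 137 CPM in siPRMT1 libraries, log2 fold change 0.75), Slc38a1, a glutamine carrier, by 0.91 and Slc1a4, a carrier of serine and alanine, by 0.57. The glutamate carrier Slc1a3 was called lower (-0.67). Slc7a11, the cystine carrier and also an ATF4 target, stood at 30.00, 10.1 and 10.8 CPM in siCtrl and 20.8, 18.98 and 19.3 CPM in siPRMT1 libraries, with siCtrl replicate 1 highest of all 6, and was called only without that library (0.92). Among the 20 listed cytosolic aminoacyl-tRNA synthetases only Aars, for alanine, was called (0.54), with a median of 0.21 for the list. At an unadjusted p under 0.05, 11 were higher and 0 lower, beside 24.6% of all genes in either direction. The suffixed locus Vars_3, for valine, chosen after its value was seen, was also called higher (0.74). Of 23 chaperones and unfolded protein response genes, 2 were called higher, Ero1l (0.80), an oxidase of the endoplasmic reticulum, and Herpud1 (0.57), which takes part in protein degradation there. The median of that list was -0.081, and Hspa5, its chief chaperone BiP, stood at 841, 852 and 742 CPM in siCtrl and 715, 740.1 and 708 CPM in siPRMT1 libraries (not called, log2 fold change -0.17 ± 0.065, edgeR adjusted p = 0.15). These 2 calls of the chaperone list came to 0 without siCtrl replicate 2, siPRMT1 replicate 1 or siPRMT1 replicate 3 and to 1 without siPRMT1 replicate 2. The number of transporters called higher was 6, 4 and 6 without siCtrl replicates 1, 2 and 3, and 3, 4 and 4 without siPRMT1 replicates 1, 2 and 3. For Slc6a9, Slc7a5 and Slc7a1 the call held in all 6 of these fits. It was lost for Slc38a1 (0.81 to 1.01) without siPRMT1 replicate 1, and for Slc1a4 (0.52 to 0.66) without siCtrl replicate 2 or siPRMT1 replicates 1, 2 and 3.

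The C/EBP-ATF response element, through which ATF4 acts, was searched as TGATGNAA on both strands of the same windows. It was present in 3.97% of all windows and 2.73% of the tested genes with a window. Of the genes called higher, 14 of 181 held it, or 7.73%, and of those called lower 3 of 155, or 1.94%. It was found in 9 of 26 tested members of the amino acid response and in 3 of 11 called ones. The windows of Chac1 and Trib3, both among the genes with the steadiest rises, are shown in the same way, with matches from base -193 in Chac1 and from base 14 after the start in Trib3.
Chac1 (plus strand, chr2:119350992-119351291): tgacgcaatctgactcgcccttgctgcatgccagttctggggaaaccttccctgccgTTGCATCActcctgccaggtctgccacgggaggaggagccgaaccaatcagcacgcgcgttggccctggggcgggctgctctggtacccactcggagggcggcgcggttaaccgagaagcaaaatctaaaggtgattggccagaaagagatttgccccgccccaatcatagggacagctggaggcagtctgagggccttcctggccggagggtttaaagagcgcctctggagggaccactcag
Trib3 (minus strand, chr2:152344011-152344310): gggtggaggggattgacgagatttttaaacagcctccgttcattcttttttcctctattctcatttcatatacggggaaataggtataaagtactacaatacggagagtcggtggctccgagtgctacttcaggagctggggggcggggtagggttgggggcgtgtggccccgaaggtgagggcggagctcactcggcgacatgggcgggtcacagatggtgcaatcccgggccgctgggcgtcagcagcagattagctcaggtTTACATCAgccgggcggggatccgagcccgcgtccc
These windows do not reach introns or more distant elements.

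Adipogenesis is driven by PPARγ and C/EBPα, which switch on each other and most genes of the fat cell. Of 28 adipogenic transcription factors tested, 4 were called lower and 1 higher, against 1.61% and 1.95% of all genes. The median log2 fold change was -0.064. Pparg, which encodes the master regulator PPARγ, stood at 98.6, 104 and 110.3 CPM in siCtrl and 71.6, 70.8 and 75.4 CPM in siPRMT1 libraries (log2 fold change -0.52 ± 0.072, edgeR adjusted p = 0.0066). Cebpa, the gene of C/EBPα, stood at 43.6, 43.97 and 64.00 CPM in siCtrl and 28.1, 25.4 and 28.7 CPM in siPRMT1 libraries (log2 fold change -0.88 ± 0.15, edgeR adjusted p = 0.016). The siPRMT1 libraries lay below the siCtrl libraries in both genes, and for Cebpa siCtrl replicate 3 was the highest of the 6, with a log2 fold change of -0.68 without it. Stat5a, a growth hormone signal transducer, and Nr1h3, the oxysterol receptor LXRα, were called with -0.52 and -0.64. The factors that act earlier were not called. Cebpb stood at 111, 149 and 199.7 CPM in siCtrl and 187, 148 and 249.8 CPM in siPRMT1 libraries and Cebpd at 84.7, 93.7 and 126 CPM in siCtrl and 106, 93.7 and 125 CPM in siPRMT1 libraries, with overlap between the groups in each. Without siCtrl replicate 3 the log2 fold change of Cebpb was 0.59 and passed the test, beside 0.35 with it. Klf4, an early inducer of Cebpb, was called higher (0.77). Klf15 was below the filter, and Ppargc1a had a log2 fold change of 0.20. Of 24 anti-adipogenic regulators 1 was called, Ddit3 as given above, and 1 further gene was lower without siCtrl replicate 1 or 3. Dlk1, the preadipocyte factor, had a log2 fold change of -0.17, Gata2 of -0.30, Gata3 of 0.20, Nr2f2 of 0.12 and Sox9 of 0.13, none with an adjusted p under 0.21 (edgeR). The number of adipogenic factors called lower was 4, 2 and 3 without siCtrl replicates 1, 2 and 3, and 1, 1 and 1 without siPRMT1 replicates 1, 2 and 3. The call no longer held for Pparg (-0.56 to -0.48) without siCtrl replicate 3, where -0.48 was short of the fold threshold. Nor did it hold for Cebpa (-0.98 to -0.68) without siPRMT1 replicates 1, 2 and 3, or for Nr1h3 (-0.73 to -0.57) without siCtrl replicate 2 or siPRMT1 replicates 1, 2 and 3. It was also lost for Stat5a (-0.58 to -0.40) without siCtrl replicates 2 and 3 or siPRMT1 replicates 1, 2 and 3.

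Genes of lipid droplets, lipid uptake and triglyceride metabolism had the lowest median of the lists, -0.33. Of 31 tested, 6 were called lower and 1 higher, and 21 were lower and 1 higher at an unadjusted p under 0.05. The number called lower was 6, 4 and 6 without siCtrl replicates 1, 2 and 3, and 3, 3 and 2 without siPRMT1 replicates 1, 2 and 3. The median moved to -0.24 without siCtrl replicate 3, which lay 0.17 above its group mates in the median of this list. Fabp5, a fatty acid carrier, stood at 65.4, 68.1 and 66.4 CPM in siCtrl and 43.3, 38.6 and 41.3 CPM in siPRMT1 libraries (log2 fold change -0.70 ± 0.074, edgeR adjusted p = 0.0030). Mest, an imprinted gene that follows fat mass, stood at 20.8, 23.4 and 23.5 CPM in siCtrl and 13.5, 11.3 and 13.2 CPM in siPRMT1 libraries (log2 fold change -0.83 ± 0.10, edgeR adjusted p = 0.0048), with 31.5% of its exon bases shared with Copg2. Pnpla2, the triglyceride lipase ATGL, stood at 81.4, 83.8 and 111 CPM in siCtrl and 56.3, 45.5 and 51.5 CPM in siPRMT1 libraries (log2 fold change -0.85 ± 0.13, edgeR adjusted p = 0.011). Agpat9, an acyltransferase of triglyceride synthesis, and Cd36, a fatty acid receptor, fell by 0.71 and 0.65 on the log2 scale, and Cidec, a lipid droplet protein, by 0.90. The member called higher was Bscl2, or seipin (0.57), a call that was lost whichever library was left out. Fabp4, the classical adipocyte fatty acid binding protein, stood at 15.5, 12.1 and 15.5 CPM in siCtrl and 9.07, 8.81 and 12.5 CPM in siPRMT1 libraries, with 1 siPRMT1 library inside the siCtrl range (log2 fold change -0.51 ± 0.16, edgeR adjusted p = 0.097). Lpl, lipoprotein lipase, and Lipe, hormone-sensitive lipase, had log2 fold changes of -0.25 and -0.50 and were not called, though Lipe was without siCtrl replicate 1. Late adipocyte genes were near the floor. Plin1 stood at 0.919, 1.48 and 2.23 CPM in siCtrl and 0.508, 0.698 and 1.05 CPM in siPRMT1 libraries, and Adipoq, below the filter, had 10 to 12 counts in each siCtrl and 1 to 4 in each siPRMT1 library. Plin2 held no counts under its own name. The calls of Fabp5 and Mest did not depend on any 1 library. Calls were lost for Pnpla2 (-0.94 to -0.69) without siPRMT1 replicates 2 and 3, for Agpat9 (-0.75 to -0.66) without siPRMT1 replicates 1 and 3, and for Cd36 (-0.75 to -0.57) without siCtrl replicates 1 and 2 or siPRMT1 replicates 1, 2 and 3. Cidec had no call without siCtrl replicate 2 or any 1 siPRMT1 library.

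Beside this list, fatty acid and sterol metabolism held few calls. None of 15 fatty acid synthesis genes was called by edgeR or DESeq2, and 5 were lower at an unadjusted p under 0.05, beside 24.6% of all genes in either direction. Scd1, stearoyl-CoA desaturase, passed the adjusted p alone (log2 fold change -0.27 ± 0.053, edgeR adjusted p = 0.023), while Fasn, Acaca and Acly had log2 fold changes of -0.16, -0.026 and -0.12. Of 25 cholesterol genes 1 was called, Stard4, a sterol carrier (-0.56), with Hmgcs1, Sqle and Insig1 at -0.28, 0.053 and -0.00078, not called. In fatty acid oxidation, 2 of 23 genes had a positive log2 fold change and the median was -0.21, with Acaa2, a thiolase of the mitochondrial beta-oxidation spiral, called lower at the edge of the threshold (log2 fold change -0.50 ± 0.078, edgeR adjusted p = 0.011) and Acot2 called higher (0.95), the latter not without siCtrl replicate 2, siPRMT1 replicate 2 or siPRMT1 replicate 3. The call was lost for Acaa2 (-0.55 to -0.45) without siCtrl replicates 2 and 3 or siPRMT1 replicates 1 and 3. Of 31 glycolysis and hypoxia genes 1 was called, Pfkfb3 (0.60), an activator of glycolysis. Of 22 NRF2 and glutathione genes 2 were called lower in every fit, the quinone reductase Nqo1 and the peroxiredoxin Prdx1 (-0.59 and -0.53). Pfkfb3 and Stard4 had no call without siCtrl replicate 2 or any 1 siPRMT1 library, and without siCtrl replicate 3 the counts were 2 higher for glycolysis and hypoxia and 2 lower for cholesterol.

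**Figure D4:**
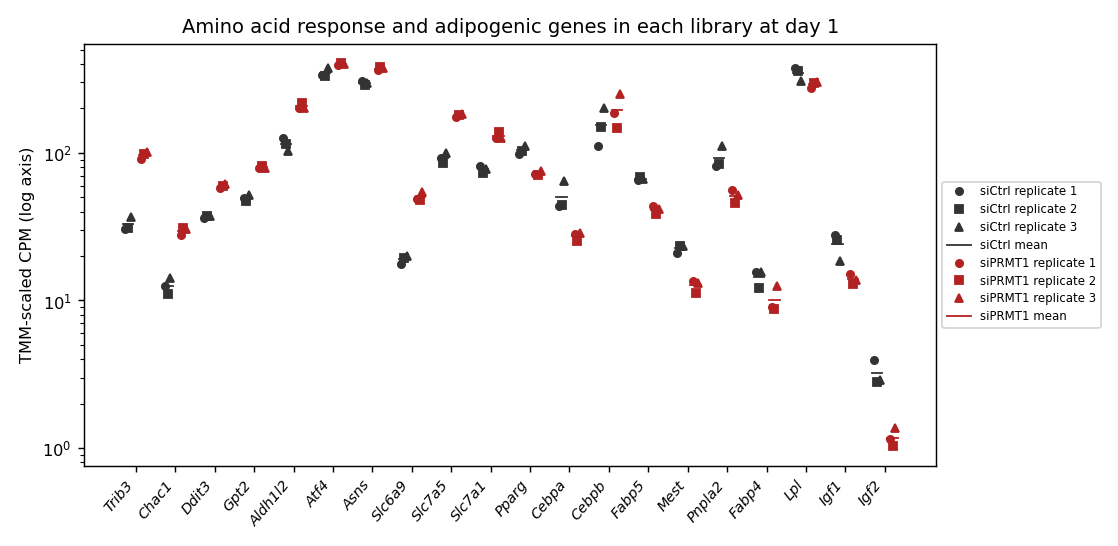
TMM-scaled CPM on a log axis (vertical) of 20 amino acid response, adipogenic and growth factor genes (horizontal) in the 3 siCtrl (black) and 3 siPRMT1 (red) libraries at day 1, with a symbol per replicate and a line at each group's mean. From Trib3 to Slc7a1 the siPRMT1 libraries lie above the siCtrl libraries, and from Pparg on they lie below them except for Cebpb and Fabp4, where the groups overlap.

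Insulin-like growth factors act on preadipocytes as mitogens and as adipogenic signals. Of 23 IGF and insulin signalling genes, 3 were called lower and 1 higher, against 1.61% and 1.95% of all genes, with a median of -0.12. Beside Igf2 and H19, Igf1 stood at 27.9, 25.8 and 18.6 CPM in siCtrl and 15.1, 12.9 and 13.8 CPM in siPRMT1 libraries (log2 fold change -0.79 ± 0.15, edgeR adjusted p = 0.021), with siCtrl replicate 3 nearest to the siPRMT1 libraries. Igfbp6, a binding protein with a preference for IGF2, was called higher (0.67), a call lost without siCtrl replicate 2 or any 1 siPRMT1 library. The number of these genes called lower was 2, 2 and 3 without siCtrl replicates 1, 2 and 3, and 2, 1 and 2 without siPRMT1 replicates 1, 2 and 3. The call of H19 held throughout. It was lost for Igf2 (-1.60 to -1.27) without siPRMT1 replicate 2, and for Igf1 (-0.95 to -0.67) without siCtrl replicates 1 and 2 or siPRMT1 replicates 1, 2 and 3.

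Matrix genes were called in both directions, but on the list of matrix genes the calls were all lower. Of 46 collagen and matrix genes on the list, 5 were called lower and 0 higher, with a median of -0.16, and 23 were lower and 4 higher at an unadjusted p under 0.05. Lum, the proteoglycan lumican, stood at 28.8, 27.2 and 24.4 CPM in siCtrl and 15, 15.9 and 15.5 CPM in siPRMT1 libraries (log2 fold change -0.79 ± 0.093, edgeR adjusted p = 0.0036). Aspn, asporin of the same family, stood at 412, 379.9 and 225 CPM in siCtrl and 193, 203 and 162 CPM in siPRMT1 libraries, with siCtrl replicate 3 between its group mates and the siPRMT1 libraries (log2 fold change -0.87 ± 0.20, edgeR adjusted p = 0.040). Nid2, a basement membrane nidogen, and Loxl1, an enzyme that crosslinks elastin, fell by 0.64 and 0.53 on the log2 scale, as did Mmp3 above. Outside the list, and chosen after their values were seen, the collagen chains Col9a3 (2.02), Col7a1 (0.88) and Col27a1 (0.58), the loci Col11a2_2 (0.97) and Loxl3_1 (0.52), the phosphoprotein Spp1 (0.55) and the protease Adamts14 (0.99) were called higher, and the laminin Lama2 (-0.64), the proteoglycans Kera (-1.32) and Prelp (-0.65), Mmp23 (-0.58) and Pcolce2 (-0.58) lower, log2 fold changes in brackets. The main structural genes on the list were not called, with log2 fold changes of -0.19 for Col1a1, -0.11 for Col3a1, -0.15 for Col4a1 and 0.040 for Fn1. The number of listed matrix genes called lower was 4, 2 and 6 without siCtrl replicates 1, 2 and 3, and 1, 2 and 1 without siPRMT1 replicates 1, 2 and 3. For Lum it made no difference which library was left out. The call was lost for Mmp3 (-1.38 to -1.08) without siPRMT1 replicates 1 and 3, for Nid2 (-0.73 to -0.52) without siCtrl replicate 2 or siPRMT1 replicates 1, 2 and 3, and for Aspn (-1.09 to -0.70) without siCtrl replicates 1 and 2 or siPRMT1 replicates 1, 2 and 3. It was also lost for Loxl1 (-0.62 to -0.39) without siCtrl replicates 2 and 3 or siPRMT1 replicates 1, 2 and 3. In the list of actin and SRF targets, 1 of 21 was called, Cnn2 (-0.62), a calponin, called again without siCtrl replicate 1, siCtrl replicate 3 or siPRMT1 replicate 3 only, and Acta2 and Ctgf had log2 fold changes of -0.24 and 0.34.

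Day 1 falls in mitotic clonal expansion, and the cell cycle genes were abundant in both groups. Of 50 DNA replication and S phase genes, 1 was called, E2f2 (0.59), and none of 46 mitosis genes was, by edgeR or DESeq2. Without siCtrl replicate 3, 2 replication genes and 1 mitosis gene were called higher, and in the other 5 fits none was. At an unadjusted p under 0.05, 7 replication genes were higher and 2 lower, and 2 mitosis genes higher and 6 lower. Over all genes, 24.6% had such a p in either direction. The medians were 0.020 and -0.042. Mcm2, Cdc6, Pcna, Rrm2 and E2f1, which act in replication, had log2 fold changes of 0.18, 0.14, -0.10, 0.13 and 0.10. Cyclin E1 (Ccne1) passed the adjusted p below the fold threshold (log2 fold change 0.44 ± 0.087, edgeR adjusted p = 0.023) and was called without siCtrl replicate 3 (0.52), and Ccne2 had a log2 fold change of 0.45. The mitotic genes Ccnb1 and Cdk1 passed it in the other direction, with -0.27 and -0.26, and Ccna2 stood at -0.010. Mki67, the proliferation marker Ki-67, stood at 596, 571 and 271 CPM in siCtrl and 572, 583 and 582 CPM in siPRMT1 libraries, so siCtrl replicate 3 held less than any other library and the remaining 5 were close together. Its log2 fold change was 0.27 with and -0.012 without that library.

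Among 37 D-type cyclins, CDK inhibitors and p53 targets, 4 were called higher and 0 lower, against 1.95% and 1.61% of all genes. The median was 0.18. At an unadjusted p under 0.05, 14 were higher and 3 lower, beside 24.6% of all genes in either direction. Gadd45a, a growth arrest and DNA damage gene, stood at 14.97, 16.9 and 15.7 CPM in siCtrl and 23.7, 28.4 and 29.6 CPM in siPRMT1 libraries (log2 fold change 0.78 ± 0.11, edgeR adjusted p = 0.0066). Plk3, a stress-responsive kinase, and Cdk6, which drives entry into S phase, rose by 0.68 and 0.50 on the log2 scale, the latter at the threshold. The fourth was Sesn2, which is also on the amino acid list. Cdkn1a, the p53-induced inhibitor p21, stood at 103, 103 and 104 CPM in siCtrl and 106, 117 and 122 CPM in siPRMT1 libraries (log2 fold change 0.16 ± 0.072, edgeR adjusted p = 0.23), and Trp53 had a log2 fold change of 0.30 and Mdm2 of -0.078. Ccnd1, cyclin D1, passed the adjusted p with 0.27, and shares 31.4% of its exon bases with Oraov1. Cdkn1c was listed at 0 counts. The number called higher was 2, 1 and 4 without siCtrl replicates 1, 2 and 3, and 1, 1 and 0 without siPRMT1 replicates 1, 2 and 3. Calls were lost for Gadd45a (0.71 to 0.85) without siPRMT1 replicate 3, for Plk3 (0.58 to 0.82) without siCtrl replicates 1 and 2 or siPRMT1 replicates 1, 2 and 3, and for Cdk6 (0.38 to 0.60) without siCtrl replicates 2 and 3 or siPRMT1 replicates 1, 2 and 3.

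The Wnt pathway, which restrains adipogenesis, held no call among 29 genes tested by edgeR or DESeq2, with a median of -0.067. At an unadjusted p under 0.05, 4 were higher and 6 lower, beside 24.6% of all genes in either direction. Axin1 stood at 124, 125 and 147 CPM in siCtrl and 145, 134 and 142 CPM in siPRMT1 libraries (log2 fold change 0.092 ± 0.084). Ctnnb1, which encodes beta-catenin, and Lef1, its DNA-binding partner, had log2 fold changes of -0.18 and -0.46 and adjusted p of 0.083 and 0.14 in edgeR. Axin2 and Wnt10b were below the filter. Without siCtrl replicate 3, 2 Wnt genes were called higher, and without siCtrl replicate 1, 1 was called lower. Of the direct responses to the inducing mixture, 1 of 17 glucocorticoid-induced genes was called higher and 1 lower, and 1 of 21 cAMP-induced genes was called higher. The clock gene Per1, on both lists, stood at 119.7, 125 and 139 CPM in siCtrl and 185, 179 and 198 CPM in siPRMT1 libraries (log2 fold change 0.55 ± 0.079, edgeR adjusted p = 0.0079), and its call was lost without siCtrl replicate 2 or siPRMT1 replicates 1 and 3, with log2 fold changes from 0.50 to 0.62 over the 6 fits. The lower one was Fam107a. Fkbp5 and Tsc22d3, standard reporters of the glucocorticoid receptor, had log2 fold changes of -0.15 and -0.095, and Sgk1, Pdk4, Nr4a1 and Crem of 0.29, -0.28, 0.34 and 0.10. None of these 6 was called.

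Lists tied to the known substrates of PRMT1 or to general growth held few calls. None of 45 hnRNP and SR splicing proteins, many of them PRMT1 substrates, was called by edgeR or DESeq2, with a median of 0.0053. At an unadjusted p under 0.05, 2 were higher and 4 lower, beside 24.6% of all genes in either direction. Of the 45, 1 was called higher without siCtrl replicate 3 and 1 lower without siPRMT1 replicate 2. Of 49 ribosome biogenesis genes, Rrp12, of the 40S processing machinery, was called higher (0.53) and Rrn3, an initiation factor of RNA polymerase I, lower (-0.55). The list had 3 genes called higher without siCtrl replicate 3 and 0 higher in the other 5 fits. None of 77 cytosolic ribosomal proteins was called by edgeR or DESeq2, yet 68 had a negative log2 fold change and 36 were lower at an unadjusted p under 0.05, with a median of -0.16, and -0.21 without siCtrl replicate 3, where 1 was called lower. The nuclear-encoded respiratory chain had 0 calls among 50 genes by edgeR and DESeq2, 2 higher and 15 lower at an unadjusted p under 0.05, and a median of -0.063. Of 30 neuron differentiation genes, 3 were called higher, against 1.95% of all genes, with a median of 0.19. These were the transcription factor Sox11 (1.96 to 2.54 CPM in siCtrl and 3.82 to 4.30 CPM in siPRMT1 libraries, log2 fold change 0.88), the neurotrophin Bdnf (16.6 to 20.8 CPM in siCtrl and 25.04 to 30.7 CPM in siPRMT1 libraries, 0.61) and the teneurin Tenm4 (8.17 to 9.58 CPM in siCtrl and 12.03 to 14.5 CPM in siPRMT1 libraries, 0.60). The number called was 3, 0 and 6 without siCtrl replicates 1, 2 and 3, and 0, 0 and 0 without siPRMT1 replicates 1, 2 and 3. These calls were lost for Sox11 (0.81 to 1.03) and Bdnf (0.53 to 0.70) without siCtrl replicate 2 or siPRMT1 replicates 1, 2 and 3, and for Tenm4 (0.52 to 0.65) without siCtrl replicates 1 and 2 or siPRMT1 replicates 1, 2 and 3. The neuron markers given above, at under 3 CPM in sum, were also higher in all 3 siPRMT1 libraries, with Rbfox3 at 0 counts.

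The libraries of day 3 had their own controls, so the day 1 calls could be set beside a second comparison. The labels do not say whether the libraries of the 2 days came from separate transfections or cultures. At day 3, 2.84% of 14039 genes tested were called higher and 3.80% lower. Of the 267 genes higher at day 1, 245 were tested at day 3, where 30 were called higher and 26 lower. Of the 220 lower genes, 216 were tested, where 29 were called lower and 19 higher. The median day 3 log2 fold change was 0.032 for the former and -0.053 for the latter. The difference between the days was tested as the interaction of siRNA and day over all 12 libraries, where 12.3% of 14612 genes had an adjusted p under 0.05. Among the day 1 calls this held for 140 of 267 higher and 146 of 220 lower genes, but these were chosen on the day 1 side of that difference, so the shares are a description.

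Interferon effectors mostly kept their direction. The list's median was 0.54 at day 3, with 22 called higher and 1 lower, and 12 of its 58 tested members differed between the days. Oasl2 had a log2 fold change of 1.68 at day 3, Ifit1 of 1.40, Ccl5 of 1.40 and Apol9a of 1.78. Rtp4 did not follow, with 2.06 at day 1 and -0.045 at day 3 (interaction adjusted p = 4.5e-05, edgeR). The amino acid response differed in sign between the days, with a median of 0.45 at day 1 and -0.23 at day 3, where 0 members were called higher and 5 lower, and 22 of 28 members differed between the days. Trib3 went from 1.57 to -0.96 (interaction adjusted p = 6.2e-08), Chac1 from 1.24 to -0.65 (3.3e-06) and Slc6a9 from 1.41 to -0.22 (3.3e-06, all edgeR). These 3 genes, Cdo1 and C1s1 had the 5 smallest interaction p-values among the day 1 calls. Cdo1, the cysteine dioxygenase, went from -1.01 to 0.29 and C1s1, a complement protease, from -0.60 to 0.78. The matrix list went from a median of -0.16 to 0.24, with 12 called higher and 1 lower at day 3 and 26 of 46 members differing between the days. Lum was at -0.79 and 0.84, Kera at -1.32 and 0.93, and Mmp3 at -1.25 and 0.81. The list of adipogenic factors had a median of -0.064 at day 1 and -0.12 at day 3, where 1 was called higher and 2 lower, and 2 of 28 members differed between the days. For the lipid droplet, uptake and triglyceride genes the medians were -0.33 and -0.44, with 0 called higher and 13 lower at day 3 and 9 of 31 members differing. Fabp5 went from -0.70 to -0.062 and Mest from -0.83 to -0.22 (interaction adjusted p = 0.0023 and 0.014, edgeR), and Bscl2 from 0.57 to -0.56. Pparg was at -0.52 and -0.30 on the 2 days, Cebpa at -0.88 and -0.46, and Pnpla2 at -0.85 and -0.55, and for none of these 3 did the interaction pass (edgeR adjusted p 0.096, 0.12 and 0.25). The count of genes with an interaction was 3734 without siCtrl replicate 3 of day 1, 1172 without siPRMT1 replicate 1, 1030 without siPRMT1 replicate 3 and 1057 without siCtrl replicate 2 of day 3, against 1799 with all libraries.

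**Figure D5:**
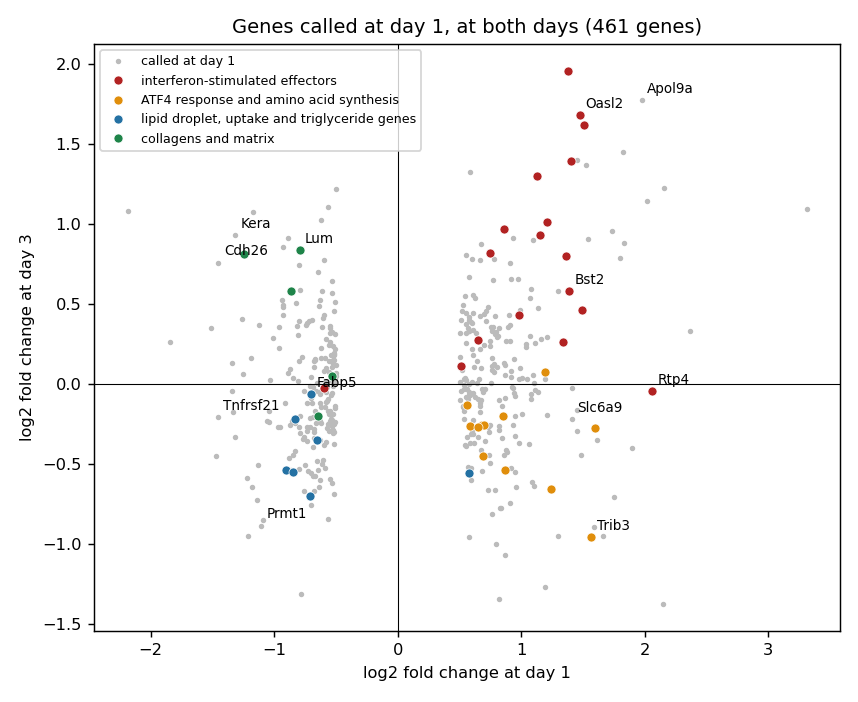
Log2 fold change of siPRMT1 over siCtrl at day 1 (horizontal axis) against that at day 3 (vertical axis) for the 461 genes called at day 1 that were tested at both days, with 4 gene lists in colour. The gap near 0 on the horizontal axis comes from the threshold, called interferon effectors above 0 at day 1 lie above 0 at day 3 except Rtp4, and the called ATF4 response genes lie below 0 at day 3 except Atf3.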

How the data were processed

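Counts per gene and FPKM (counts scaled for exon length and library total) for 12 libraries were deposited by the authors in separate tables. Total RNA was extracted with a column kit, and poly(A) libraries were made with the MGIEasy mRNA kit. Per the labels, the processing named cutadapt 1.11, HISAT2 2.1.0, RSEM 1.2.6 and the mm10 build, while the tool that counted reads, its strand setting and its handling of reads with several matches are not given in the sources used here. Genes that share exons or have near-identical copies are therefore uncertain. The deposited FPKM values were recomputed from the counts and gene lengths, with a largest difference of 0.005, and were used only to compare levels between genes. Of the 39423 listed names, 2266 carry a number suffix that marks a further locus of the same symbol.

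Day 1 libraries (21265036 to 42357137 counts) were tested with edgeR 4.0.16 (R 4.3.3), using filterByExpr, TMM scaling, the quasi-likelihood F test and Benjamini-Hochberg adjustment over all 13689 genes that passed the filter. CPM of genes are after TMM scaling. The siRNA by day interaction was fitted on all 12 libraries. Errors beside log2 fold changes are standard errors. Alternatives were DESeq2 1.42.0, RLE scaling, other filters, limma 3.58.1 voom with library weights, a replicate block, all libraries in 1 model, thinning to 1 depth, calls by adjusted p alone, leaving out each library, and, chosen after seeing the data, summing names that differ only by suffix. The edgeR step was tested on simulated data. Genes named in the text were Prmt1, the 10 largest called rises and falls at a mean of 1 CPM or more over the 6 libraries with no overlap between groups and no suffix, up to 5 called genes of smallest p per list and direction with at least 3 calls, key genes of each list, and the 5 called genes of smallest interaction p. Members and lists were chosen with earlier results of these data known. Called genes of lists named outside this rule, and the genes of the closing observations, were chosen after their values were seen. The values of a few listed genes are not reported here. Replicate numbers are not said to pair the libraries and were not used as pairs in the main fit. The deviations of same-numbered libraries from their group means correlated at -0.056, 0.19 and 0.27. These values do not settle whether the libraries were paired.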

Additional observations from a re-analysis of the deposited data

Results flagged for a closer look

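The effect of PRMT1 knockdown differed between day 1 and day 3 for 66 of the genes chosen by the naming rule. The difference was tested as the interaction of siRNA and day over all 12 libraries (edgeR, adjusted p under 0.05). Of all genes tested 12.3% passed, a share with which the 66 genes cannot be compared. The rule took many genes for their day 1 changes and some for their small interaction p-values, so the count is a description. Genes named outside the rule are not included, so the groups given here are not complete. The value after each gene is the day 1 log2 fold change minus that of day 3. No explanation was weighed for any of them.

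Of the 28 members of the amino acid response list 22 differed, and among those chosen by the rule the difference was positive for Trib3 (2.50), Chac1 (1.88), Gdf15 (1.86), Gpt2 (1.12), Atf3 (1.08), Aldh1l2 (1.03), Ddit3 (0.92), Shmt2 (0.89) and Sesn2 (0.67) and, among enzymes below the fold threshold at day 1, for Mthfd2 (0.56), Psat1 (0.48), Asns (0.46) and Phgdh (0.42). It was positive for the transporters Slc6a9 (1.61), Slc7a5 (1.25), Slc7a1 (0.98) and Slc1a4 (0.55) and for the hormone gene Adm2 (3.50). Adm2 went from 2.14 at day 1 to -1.38 at day 3. The chaperone gene Hspa5 (-0.34) had a negative difference.

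Of the interferon effectors 12 of 58 differed and of the sensors and signalling genes 3 of 30. Those chosen by the rule were Rtp4 (2.08), Usp18 (1.001), Bst2 (0.79) and Stat2 (0.48). The cytokine genes Il11 (1.47) and Cxcl1 (0.65) likewise had positive differences.

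Among adipogenic and metabolic genes so chosen, the difference was negative for Fabp5 (-0.66) and Mest (-0.64), whose falls were larger at day 1. The difference was also negative for Acaa2 (-0.56), at -0.50 at day 1 and 0.036 at day 3. It was positive for the lipogenic and sterol genes Scd1 (0.82), Insig1 (0.77), Sqle (0.43) and Acaca (0.27), which had the lower values at day 3. Growth-related differences were Igf2 (-1.06) and H19 (-1.49) and those of regulators and partners of arginine methylation Ddah1 (-0.90) and Btg1 (-0.55).

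Of the matrix list 26 of 46 members differed, and the matrix genes chosen by the rule had negative differences, namely Kera (-2.27), Mmp3 (-2.08), Lum (-1.65), Aspn (-1.46), Loxl1 (-0.61), Col3a1 (-0.56) and Fn1 (-0.31). The complement and cysteine genes C1s1 (-1.40) and Cdo1 (-1.32) and the actin gene Acta2 (-0.73) also did.

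In the cell cycle and stress lists the difference was positive for Plk3 (1.21), Gadd45a (0.63), Cdk6 (0.58) and Ccne1 (0.47) and negative for Cdk1 (-0.47), Ccnb1 (-0.41) and Ccnd1 (-0.32). For the neuron genes Sox11 (1.27) and Tenm4 (1.10) it was positive. The clock gene Per1 (0.61) had a positive difference, and Fam107a (-1.69), Tsc22d3 (-0.35) and Ctnnb1 (-0.42) had negative ones.

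Of the remaining genes with the largest day 1 changes, Atp8b3 (2.20) and Amh (0.92) rose more at day 1, and Cdh26 (-2.23), Negr1 (-1.32), Tnfrsf21 (-1.27), Aldh1a7 (-1.17) and Clmn (-1.01) fell more at day 1.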

How the results depend on the processing

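The fall of Prmt1 passed the test under every alternative run. The counts of called genes (267 higher and 220 lower) came to 260 and 233 with DESeq2, 296 and 240 with a replicate block, and 248 and 239 with suffixed names summed, but to 574 and 399 with limma voom and library weights and to 441 and 599 with no threshold on the fold change. Leaving out 1 library gave 61 to 504 higher and 62 to 369 lower genes, and 1030 to 3734 genes with an interaction against 1799. The cause of these shifts was not tested, though a left-out library also leaves fewer samples. No paired analysis was used as the main one because the replicate numbers are not said to pair libraries; under the replicate block Dhx58 (0.54), Ccl2 (0.71), Fabp4 (-0.52) and Plin1 (-1.02) passed the test, no gene chosen by the naming rule lost its call, 251 of the 267 higher and 208 of the 220 lower genes were called again, and Mavs (0.0019) and Insig1 (0.0016) changed sign near 0. With voom, Eif2ak2 (-0.11), Mavs (0.055) and Insig1 (0.0029) changed sign. With 1 library left out the log2 fold changes of uncalled genes that changed sign ran for Eif2ak2 from -0.093 to 0.17, Mavs from -0.058 to 0.081, Irf3 from -0.19 to 0.047, Slc7a11 from -0.095 to 0.92, Cebpd from -0.036 to 0.28, Ppargc1a from -0.0095 to 0.45, Gata3 from -0.034 to 0.30, Insig1 from -0.034 to 0.048, Ccna2 from -0.078 to 0.043, Mki67 from -0.012 to 0.46, Mdm2 from -0.21 to 0.00039 and Prmt2 from -0.040 to 0.16. None of the 487 called genes changed sign under any alternative in which it had a value. In all of them the 2 groups of libraries did not overlap, so a change of sign was hardly possible. Of the 267 higher and 220 lower genes, 61 and 62 were called again without siPRMT1 replicate 3, and 255 and 189 without siCtrl replicate 3. Genes under the filter, at a few counts per library, could not be compared at this depth.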

Other observations

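Outside the lists, several called genes with narrow spread were of other kinds, chosen after their values were seen. Each of the genes in this paragraph kept the call in all 6 fits with 1 library left out, except Cdo1's neighbour in taurine synthesis, Csad. Bcat1, the cytosolic branched-chain aminotransferase, stood at 42.8, 40.96 and 44.6 CPM in siCtrl and 88.99, 91.5 and 97.5 CPM in siPRMT1 libraries (log2 fold change 1.114 ± 0.073, edgeR adjusted p = 0.00098), and the table holds a further locus of the same symbol, so the division of reads is uncertain. Kmt2d, a histone H3 lysine 4 methyltransferase, stood at 219, 214 and 223 CPM in siCtrl and 362, 350.2 and 341 CPM in siPRMT1 libraries (log2 fold change 0.68 ± 0.058, edgeR adjusted p = 0.0022). Ramp3, a partner of the calcitonin receptor family through which Adm2 acts, rose by 1.07 on the log2 scale. Lower were Anxa2, the phospholipid-binding annexin A2, at 835, 870.1 and 883 CPM in siCtrl and 576, 509.9 and 523 CPM in siPRMT1 libraries (log2 fold change -0.69 ± 0.063, edgeR adjusted p = 0.0030), and Mdh1, cytosolic malate dehydrogenase, at 218, 226 and 228 CPM in siCtrl and 146, 133 and 135 CPM in siPRMT1 libraries (log2 fold change -0.70 ± 0.065, edgeR adjusted p = 0.0030). Abcg1, a cholesterol exporter and LXR target, and Nov, a matricellular protein, fell by 1.18 and 1.17. Cdo1, the cysteine dioxygenase that opens taurine synthesis, stood at 46.03, 47.6 and 49.6 CPM in siCtrl and 23.6, 23.6 and 23.8 CPM in siPRMT1 libraries (log2 fold change -1.01 ± 0.073, edgeR adjusted p = 0.00098). Csad, the next enzyme of that pathway, fell by 0.68 and lost the call without siPRMT1 replicate 3, and 22.5% of its exon bases are shared with Zfp740.

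Of genes tied to the circadian clock, no list was fixed, and the 3 given here were chosen after their values were seen. Ciart, a repressor of the clock, stood at 2.25, 2.05 and 2.32 CPM in siCtrl and 4.62, 4.33 and 5.19 CPM in siPRMT1 libraries (log2 fold change 1.09 ± 0.14, edgeR adjusted p = 0.0054), and Tef, a PAR bZIP factor driven by the clock, stood at 74.03, 73.1 and 80.8 CPM in siCtrl and 52.7, 50.3 and 50.9 CPM in siPRMT1 libraries (log2 fold change -0.57 ± 0.072, edgeR adjusted p = 0.0052). Both calls held with any 1 library left out. Dbp, the relative of Tef, had a log2 fold change of -0.83 and lost its call without siCtrl replicate 2 or siPRMT1 replicates 1, 2 and 3.

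Receptors of growth factors were also among the lower genes. Fgfr2 fell by 0.53 and Fgfr3 by 0.89 on the log2 scale, calls lost, respectively, without siCtrl replicate 3 and without siPRMT1 replicate 3. Ghr, the growth hormone receptor that signals to Stat5a, stood at 469, 429 and 326 CPM in siCtrl and 283, 295 and 271 CPM in siPRMT1 libraries (log2 fold change -0.53 ± 0.12, edgeR adjusted p = 0.037), with siCtrl replicate 3 lowest of its group, and kept the call only without siCtrl replicate 3.

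Some genes appear only under a suffixed name. Plin2_1, the locus that holds the counts of the lipid droplet protein Plin2, stood at 92.2, 92.4 and 114 CPM in siCtrl and 80.7, 77.4 and 81.1 CPM in siPRMT1 libraries (not called, log2 fold change -0.32 ± 0.095, edgeR adjusted p = 0.081). Angptl4_1, for the lipase inhibitor Angptl4, fell by 0.59, a call lost without siCtrl replicates 2 and 3 or siPRMT1 replicates 1, 2 and 3.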
